A study of Rattus norvegicus with 16 samples.

Results

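A set of 9 genes that mark the covering epithelium of the ovary and the mesothelium was followed on 16 microarrays of rat ovary: Krt8, Krt18, Krt19, Wt1, Msln, Upk1b, Upk3b, Lrrn4 and Gpm6a. They were chosen by name, 11 probes of the array carry those names, and the brighter probe on average stood for a gene with several, so that all 9 were among the 20215 genes tested. The rats were female Jcl:SD (Sprague-Dawley) animals, either heterozygous for BRCA1 (BRCA1+/-) or wild type (WT). Olaparib, an inhibitor of the PARP enzymes that act in DNA break repair, was given under the skin at 50 mg/kg once a day for 14 days from 3 weeks of age, and ovaries were taken 24 h after the last dose. The groups were BRCA1+/- olaparib, BRCA1+/- vehicle, WT olaparib and WT vehicle, with 4 arrays each. The kind of BRCA1 allele and the make-up of the vehicle are not given in the sources used here. The labels number the ovaries within a group without stating that each came from a different rat, so the p-values measure only the spread between these samples.

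The surface of the ovary is a single layer of cells that is continuous with the mesothelium of the body cavity and, like it, carries both epithelial and mesodermal features. Keratins 8, 18 and 19 build the intermediate filaments of simple epithelia, including that of the oviduct. Wt1 encodes a zinc finger transcription factor found in mesothelium and in somatic cells of the gonad. Mesothelin (Msln) and the uroplakins Upk1b and Upk3b are surface proteins of mesothelial cells, and Lrrn4 and Gpm6a encode membrane proteins used as mesothelial markers in mouse. The oviduct and the fat pad lie next to the ovary and share parts of this covering.

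Values are log2 signals: the processed signal of the probe relative to the 75th percentile of its array, so 0 is the signal of the probe at that percentile. They compare one probe across arrays and say nothing on which gene is more abundant. In whole ovary, more cells of a type and more RNA per cell cannot be told apart. Of the genes, 8 were well above background on all 16 arrays, and Upk3b on 15. The granulosa cell gene Inha, a marker of ovary, lay between 7.20 and 8.84 on all arrays. Brca1 itself had a log2 difference of -0.67 ± 0.27 (SE) for BRCA1+/- minus WT with vehicle (limma, adjusted p 0.862) and of -0.16 ± 0.27 with olaparib. The 75th percentile signal of the arrays ranged from 202 to 566, and the share of probes well above background from 55.5% to 60.7%. Each group had 2 arrays on each of 2 slides, but always in the same slide row, so slide row and group cannot be told apart.

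The probes that carried the keratin pattern and the mesothelin and uroplakin pattern described below are shown as printed on the array, 5′ to 3′, with their positions in build rn4 as listed in the scanner files. Exon and UTR annotation of that build was not used here. The Krt8 probe is listed at chr7:140716967-140717949 on the minus strand, a stretch of 983 bases for a 60-base probe. The Krt19 probe lies at chr10:89081437-89081496, the Msln probe at chr10:15017206-15017265 and the Upk3b probe at chr12:21746939-21746998, all on the minus strand. For Krt18 the probe shown is the dimmer of the pair. The brighter one, which gave the Krt18 values below, is not shown because it has no reading frame free of stop codons. It also has no position in the files. The dimmer probe is listed at chr2:80043817-80043876 on the plus strand, whereas RefSeq places Krt18 on chromosome 7.
Krt8 probe: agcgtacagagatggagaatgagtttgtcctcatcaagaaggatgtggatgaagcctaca
Krt18 dimmer probe: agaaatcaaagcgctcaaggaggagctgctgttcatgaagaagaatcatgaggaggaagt
Krt19 probe: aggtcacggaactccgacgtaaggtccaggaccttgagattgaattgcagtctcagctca
Msln probe: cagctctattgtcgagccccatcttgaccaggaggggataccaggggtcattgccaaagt
Upk3b probe: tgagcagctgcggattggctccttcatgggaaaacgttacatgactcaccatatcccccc

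Krt8 and Krt18 are also neighbours: RefSeq (GRCr8) lists 1 gene, a long noncoding RNA, between them on chromosome 7. Their promoters are shown because their signals were high on the same arrays. Each is the 250 bases before the gene's start in GRCr8, chr7:135010340-135010589 on the minus strand for Krt8 and chr7:135035918-135036167 on the plus strand for Krt18. Capitals mark matches to TATAAA, to GGGCGG and to GCGNGGGCG on either strand. Krt8 holds TATAAA on both strands, in 2 overlapping matches 106 to 99 bases before the start. Krt18 holds GGGCGG, 84 to 79 bases before the start, and GCGGGGGCG, which overlaps it at 88 to 80 bases. In windows of the same length, TATAAA was found in 12.9% of 33465 promoters, GGGCGG in 30.5% and GCGNGGGCG in 4.29%. RefSeq promoters were at hand for 7 of the 9 genes, all but Krt19 and Msln. Of the other 5 of them, Gpm6a held GGGCGG and Wt1, Upk1b, Upk3b and Lrrn4 held none of these letters.
Krt8 promoter: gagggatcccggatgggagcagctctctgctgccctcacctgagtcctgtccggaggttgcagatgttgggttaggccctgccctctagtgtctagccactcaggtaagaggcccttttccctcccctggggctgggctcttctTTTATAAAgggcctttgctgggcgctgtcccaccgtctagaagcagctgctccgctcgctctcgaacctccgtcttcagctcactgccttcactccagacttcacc
Krt18 promoter: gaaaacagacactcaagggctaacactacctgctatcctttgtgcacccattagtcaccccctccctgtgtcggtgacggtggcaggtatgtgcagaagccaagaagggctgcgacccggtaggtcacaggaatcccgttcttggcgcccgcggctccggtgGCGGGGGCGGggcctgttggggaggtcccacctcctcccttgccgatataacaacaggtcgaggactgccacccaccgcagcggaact

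The keratins varied widely between ovaries of the same group. Krt18, the type I partner of Krt8 in simple epithelia, spanned a 94.2-fold range of signal over the 16 arrays. Its log2 signals in replicates 1 to 4 were 2.61, 1.31, 6.25 and 4.85 in BRCA1+/- olaparib ovaries and 2.17, 0.69, 6.87 and 4.41 in BRCA1+/- vehicle ovaries. In WT ovaries they were 6.76, 2.54, 6.49 and 1.59 with olaparib and 2.67, 0.88, 0.31 and 1.58 with vehicle. Thus 2 arrays in each group but WT vehicle stood above 4, and the groups overlapped in every comparison.

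Krt8, the type II partner of Krt18, was highest on the same arrays. It gave -0.99, -2.41, 1.26 and 0.96 in BRCA1+/- olaparib ovaries and -3.04, -2.34, 1.80 and -0.20 in BRCA1+/- vehicle ovaries. In WT ovaries it gave 2.29, -0.93, 1.20 and -3.58 with olaparib and -0.93, -1.49, -3.53 and -0.26 with vehicle. The lowest of the 16 values, in WT olaparib replicate 4, stood in the same group as the highest.

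Krt19, a type I keratin of simple epithelia, gave 2.37, 0.57, 4.45 and 3.63 in BRCA1+/- olaparib ovaries and 0.89, 1.36, 4.98 and 2.65 in BRCA1+/- vehicle ovaries. In WT ovaries it gave 4.56, 2.53, 4.76 and -0.71 with olaparib and 2.00, 0.20, 1.47 and 2.50 with vehicle. WT olaparib replicate 4 was again the lowest array.

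Wt1 had a narrower range, 3.78-fold over all arrays. Its log2 signals were 1.74, 1.69, 2.27 and 2.35 in BRCA1+/- olaparib ovaries and 1.27, 1.73, 2.89 and 1.90 in BRCA1+/- vehicle ovaries. They were 3.00, 1.73, 2.73 and 1.27 in WT olaparib ovaries and 1.58, 1.37, 1.29 and 1.08 in WT vehicle ovaries. The high arrays were those that were high for Krt18.

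Mesothelin was ordered differently. Msln gave 4.16, 1.50, 1.02 and 3.62 in BRCA1+/- olaparib ovaries and 2.19, 0.57, 3.37 and 2.54 in BRCA1+/- vehicle ovaries. In WT ovaries it gave 4.87, 5.05, 2.87 and -1.14 with olaparib and 3.88, 0.63, -0.63 and 3.30 with vehicle. WT olaparib thus held the highest 2 values and the lowest value of all 16 arrays.

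Upk1b, a tetraspanin of the uroplakin family, followed Msln. It gave 2.51, 0.62, 1.13 and 3.22 in BRCA1+/- olaparib ovaries and 0.66, 0.37, 2.56 and 1.84 in BRCA1+/- vehicle ovaries. In WT ovaries it gave 3.58, 3.47, 2.78 and -0.93 with olaparib and 2.06, 0.31, -0.85 and 2.20 with vehicle. The extremes again lay within WT olaparib.

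Upk3b, a single-pass uroplakin, was dim. Its log2 signals were -1.63, -3.68, -4.02 and -1.72 in BRCA1+/- olaparib ovaries and -3.07, -2.74, -2.16 and -3.24 in BRCA1+/- vehicle ovaries. They were -0.99, -1.08, -2.19 and -5.89 in WT olaparib ovaries and -1.78, -4.38, -4.38 and -1.63 in WT vehicle ovaries. The value of WT olaparib replicate 4 was not well above background, so it is a bound rather than a level. Even so, the lowest 3 arrays for Msln, Upk1b and Upk3b included WT olaparib replicate 4 and WT vehicle replicate 3 each time.

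Lrrn4 varied least of the 9 from array to array (3.09-fold), and Gpm6a varied over a 7.31-fold range. Lrrn4 gave 2.99, 2.53, 1.93 and 2.78 in BRCA1+/- olaparib ovaries and 2.36, 2.28, 1.49 and 1.95 in BRCA1+/- vehicle ovaries. It gave 2.75, 3.12, 2.12 and 1.85 in WT olaparib ovaries and 2.64, 2.67, 2.95 and 2.72 in WT vehicle ovaries, the tightest group of any of the genes (SD 0.14, n = 4). Every BRCA1+/- vehicle value lay below every WT vehicle value. These Lrrn4 results are of the brighter probe. The dimmer Lrrn4 probe spanned an 11.8-fold range over the 16 arrays and had an SD of 1.01 in WT vehicle ovaries. Gpm6a gave -0.96, -0.92, -2.97 and -1.14 in BRCA1+/- olaparib ovaries and -1.56, -1.37, -2.26 and -1.58 in BRCA1+/- vehicle ovaries. In WT ovaries Gpm6a gave -0.70, -0.10, -1.54 and -1.69 with olaparib and -1.40, -1.74, -2.07 and -1.88 with vehicle.

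**Figure D1:**
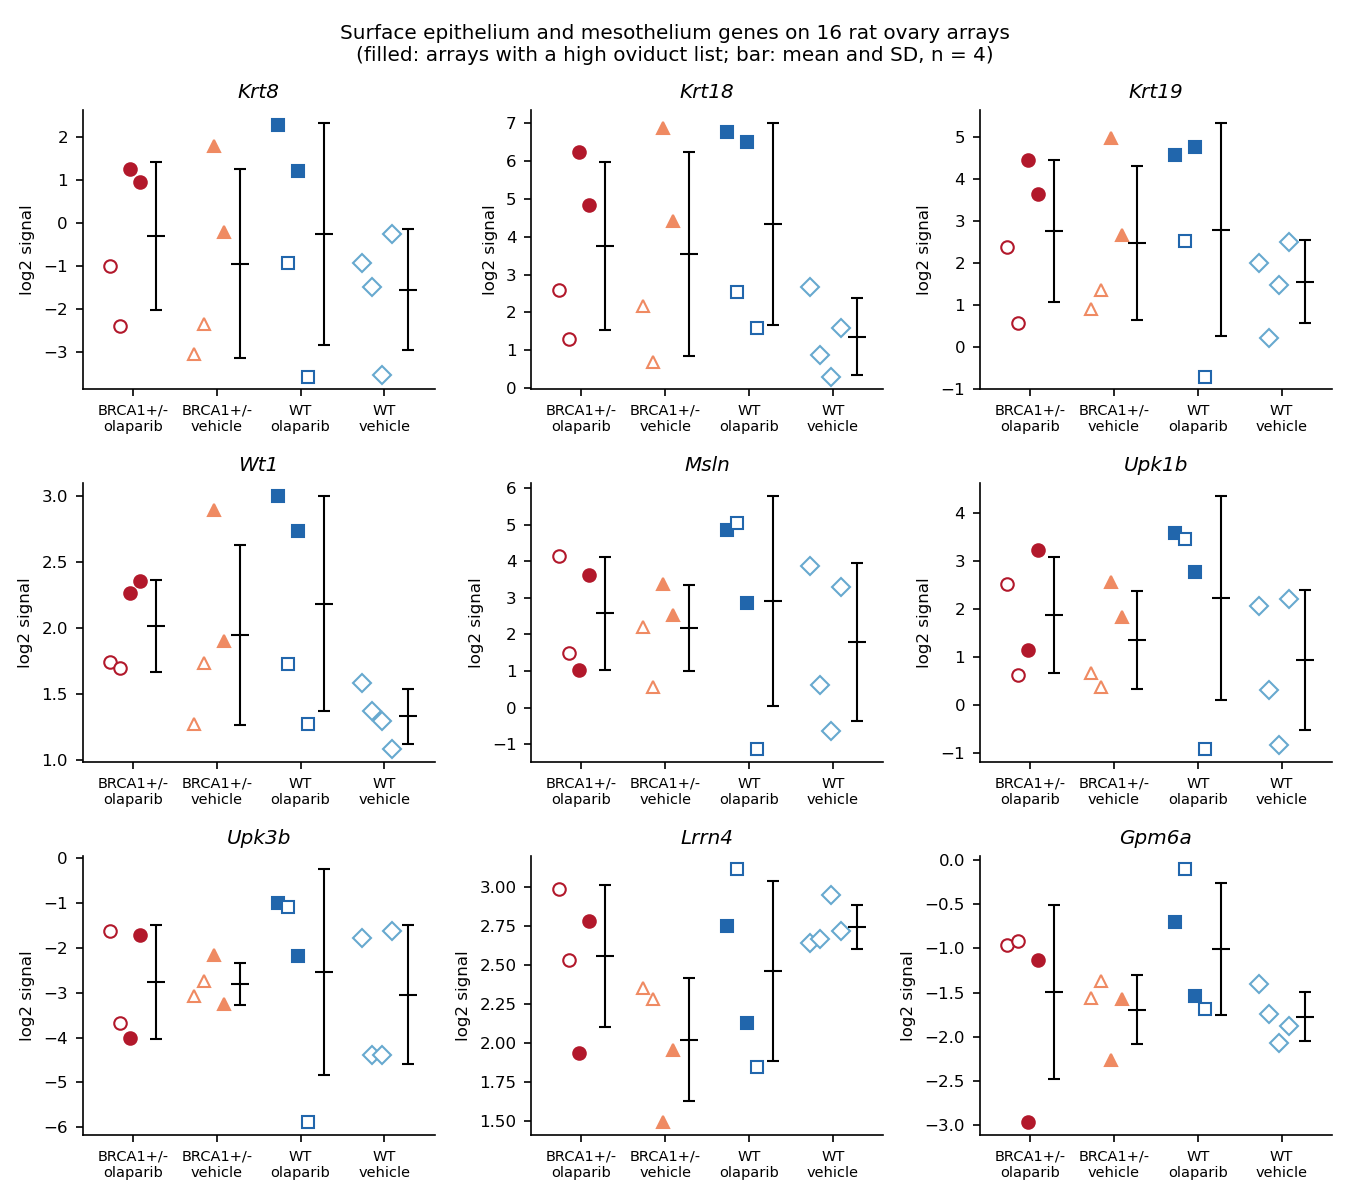
Log2 signal (vertical axes) of the 9 genes by group, 4 arrays each, with the mean and SD as a bar. Filled symbols are the 6 arrays with a high oviduct list and open symbols the other 10; for Krt8, Krt18, Krt19 and Wt1 the filled symbols lie above all open ones, while for the other genes they mix.

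The spread within groups was unusual for 6 of the genes. The residual SD in the fit, on the log2 scale, was 2.25 for Krt18, 2.04 for Msln, 2.03 for Krt8, 1.84 for Krt19, 1.54 for Upk3b and 1.52 for Upk1b, against a median of 0.43 over all 20215 genes. These values stand between the 96.4th and the 98.7th percentile of all genes. Gpm6a (0.66), Wt1 (0.57) and Lrrn4 (0.42) lay at the 76.3rd, 68.0th and 49.6th percentile.

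Genes of oviduct epithelium varied with part of this spread. Of 12 listed genes of ciliated and oviduct epithelium, such as Foxj1, Tppp3 and Pax8, 10 were tested: Dnai1 was well above background on 9 of the 16 arrays, Capsl on 12 and the other 8 on all 16. The mean of the 10, each centred on its own mean, lay between 1.51 and 3.94 on 6 arrays and between -2.56 and -0.81 on the other 10. The 6 arrays were replicates 3 and 4 of BRCA1+/- olaparib, replicates 3 and 4 of BRCA1+/- vehicle and replicates 1 and 3 of WT olaparib, with 0 of 4 in WT vehicle. All but WT olaparib replicate 1 were on slide 2, which also held WT vehicle replicates 3 and 4 and WT olaparib replicate 4. The split thus follows the slide in part. With slide in the fit, 1597 of the 20215 genes and 0 of the 9 differed between slides (limma, adjusted p under 0.05). The summed signal of the list, in units of the 75th percentile, ranged from 3.28 to 121.7 in BRCA1+/- olaparib, 3.22 to 243.4 in BRCA1+/- vehicle, 4.64 to 200.1 in WT olaparib and 3.11 to 8.29 in WT vehicle ovaries. Split this way after the values were seen, Krt18 lay between 4.41 and 6.87 on the 6 arrays, against 0.31 to 2.67 on the other 10. Krt19 lay between 2.65 and 4.98 on the 6 arrays, against -0.71 to 2.53 on the other 10. Krt8 lay between -0.20 and 2.29, against -3.58 to -0.26, and Wt1 between 1.90 and 3.00, against 1.08 to 1.74. Msln, Upk1b, Upk3b, Lrrn4 and Gpm6a overlapped between the 6 and the 10 arrays. Msln, for example, lay between 1.02 and 4.87 on the 6 arrays, against -1.14 to 5.05 on the other 10. Among the 6 arrays alone, Pearson's r between Krt18 and the oviduct list was 0.99 and Spearman's rho 1.00 (r 0.98 without the 2 arrays farthest from the median of the list), and among the other 10 arrays r was 0.18 and rho 0.21. For Krt19, Wt1 and Krt8 r was 0.95, 0.93 and 0.89 on the 6 arrays, and -0.75, -0.21 and -0.38 on the other 10. A list of simple epithelium genes, such as Epcam and Cdh1, split the same arrays. Its mean lay between 0.96 and 3.25 on the 6 arrays, against -1.88 to -0.85. Over 16 arrays its r was 0.97 with Krt18, 0.92 with Wt1, 0.84 with Krt8 and 0.83 with Krt19. The oviduct list had 0.95, 0.90, 0.82 and 0.79. On the other 10 arrays r with simple epithelium was 0.60, 0.10, -0.25 and -0.33 in that order. These correlations over 6, 10 and 16 arrays of whole ovary are descriptions and were not tested. The part of oviduct tissue in the keratin and Wt1 values was not tested.

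**Figure D2:**
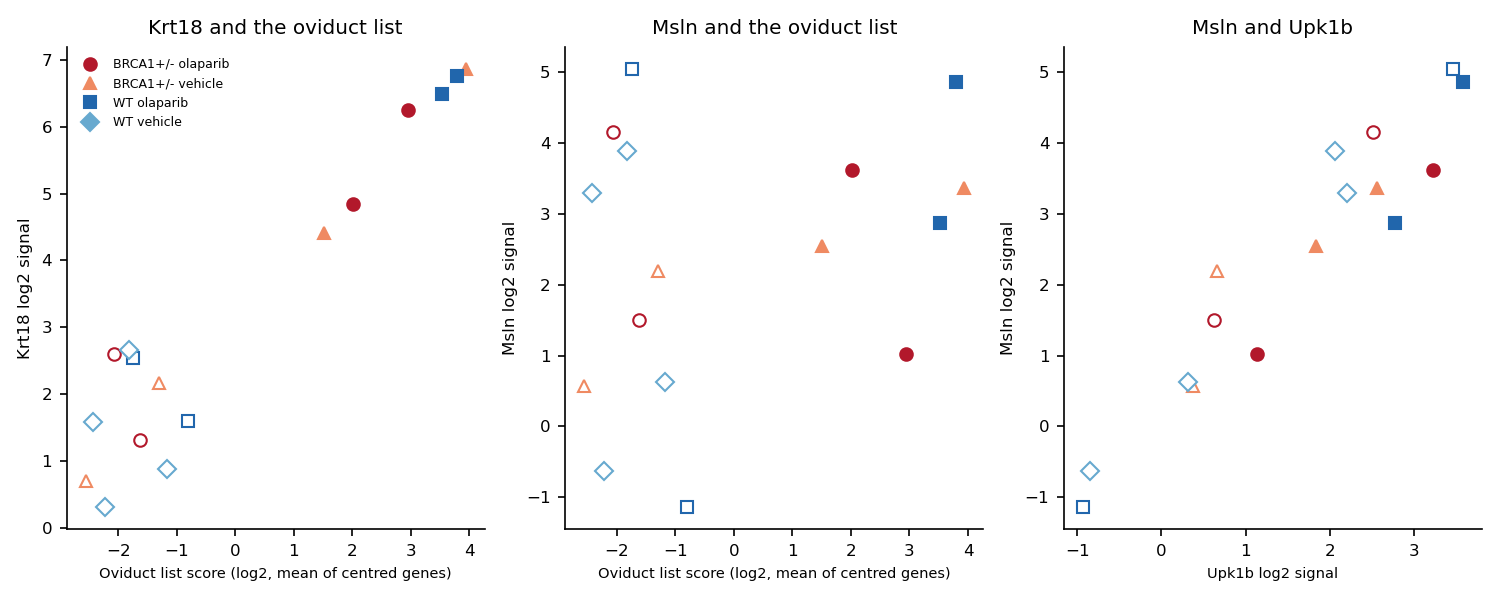
Log2 signal of Krt18 (left) and Msln (middle) against the oviduct list score, the mean of 10 centred log2 signals, and of Msln against Upk1b (right), for 16 arrays with symbols by group. Filled symbols are the 6 arrays with a high oviduct list, all with Krt18 at 4.41 or above; the filled Msln values (1.02 to 4.87) lie within the range of the open ones (-1.14 to 5.05), and Msln lies along a line with Upk1b.

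Msln, Upk1b and Upk3b varied together whether the oviduct list was high or not. Msln and Upk1b had r 0.95 and rho 0.92 over 16 arrays, r 0.95 on the 6 arrays with a high oviduct list and r 0.98 on the other 10. Msln and Upk3b had r 0.94, 0.97 and 0.93 over the same sets, and Upk1b and Upk3b 0.91, 0.99 and 0.93. Without the 2 arrays farthest from the median, the r over 16 arrays stayed at 0.91 for Msln with Upk1b, 0.92 for Msln with Upk3b and 0.88 for Upk1b with Upk3b. The keratins were tied to one another less tightly once the 6 arrays were set aside: over the other 10, r was 0.50 for Krt8 with Krt18, 0.71 for Krt8 with Krt19 and 0.42 for Krt18 with Krt19. On those 10 arrays the keratins had a higher r with Msln, 0.82 for Krt8, 0.81 for Krt18 and 0.80 for Krt19. Wt1 had r 0.38 with Msln there and between 0.20 and 0.28 with the keratins. All of these pairs share the same arrays and scaling and are given as descriptions.

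A list of 14 other mesothelial genes, 12 of them tested, varied with Msln, Upk1b and Upk3b. The mean of the list and Upk1b had r 0.91 over 16 arrays and 0.93 over the 10 without a high oviduct list, against 0.84 and 0.90 for Msln and 0.81 and 0.88 for Upk3b. Over 16 arrays Krt8 (0.81) was as close to the list as Upk3b. The others had 0.77 (Krt19), 0.70 (Wt1), 0.68 (Krt18), 0.38 (Gpm6a) and 0.25 (Lrrn4). Over the 10 arrays r was 0.67 for Krt18, 0.56 for Gpm6a and 0.33 for Wt1. On the 6 arrays with a high oviduct list r was 0.93 for Msln, 0.92 for Upk3b and 0.91 for Upk1b. Over the 10 arrays Krt19 (0.88) and Krt8 (0.82) were as close to the list as Upk3b or nearly so, Lrrn4 had 0.73, and by Spearman's rho Krt19 (0.90) stood above Upk3b (0.84), Lrrn4 (0.83), Upk1b (0.79) and Msln (0.79). The list's mean lay between -0.49 and 0.76 in BRCA1+/- olaparib, -0.57 and 0.37 in BRCA1+/- vehicle, -0.72 and 1.19 in WT olaparib, and -0.53 and 0.18 in WT vehicle ovaries. Fat cell genes varied with these and with other members. Of 8 listed adipocyte genes 6 were tested, and r of the list's mean over 16 arrays was 0.85 with Upk1b, 0.80 with Msln and 0.75 with Upk3b. It was as high with Krt19 (0.76), Wt1 (0.75), Krt8 (0.75) and Krt18 (0.74) as with Upk3b, and lower with Gpm6a (0.41) and Lrrn4 (0.03). Spearman's rho was 0.86 for Krt19, 0.85 for Upk1b, 0.84 for Krt18, 0.82 for Wt1 and 0.80 for Krt8, against 0.72 for Msln and 0.64 for Upk3b. Over the 10 arrays without a high oviduct list r was 0.86 with Gpm6a, 0.85 with Upk1b, 0.85 with Msln, 0.83 with Upk3b, 0.69 with Krt18, 0.69 with Krt19, 0.60 with Wt1, 0.52 with Krt8 and 0.48 with Lrrn4. WT olaparib replicates 1 and 2 held the highest adipocyte means, 4.21 and 2.75, as well as the highest Msln. WT olaparib replicate 4 and WT vehicle replicates 2 and 3 held the lowest, -2.64, -2.89 and -2.52. The list's summed signal ranged from 6.55 to 17.1 in BRCA1+/- olaparib, 5.85 to 19.9 in BRCA1+/- vehicle, 3.28 to 109.2 in WT olaparib and 4.96 to 8.09 in WT vehicle ovaries, and Plin1 and Cidec did not pass the filter on dim probes. The part of fat or other attached tissue in these values was not tested. The adipocyte values include Lep, which passed the filter on dim probes through WT olaparib alone. Those of the other mesothelial list likewise include Lgr5 and Muc1. Array means and r were not computed without these genes, so the high means in WT olaparib rest in part on that choice.

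**Figure D3:**
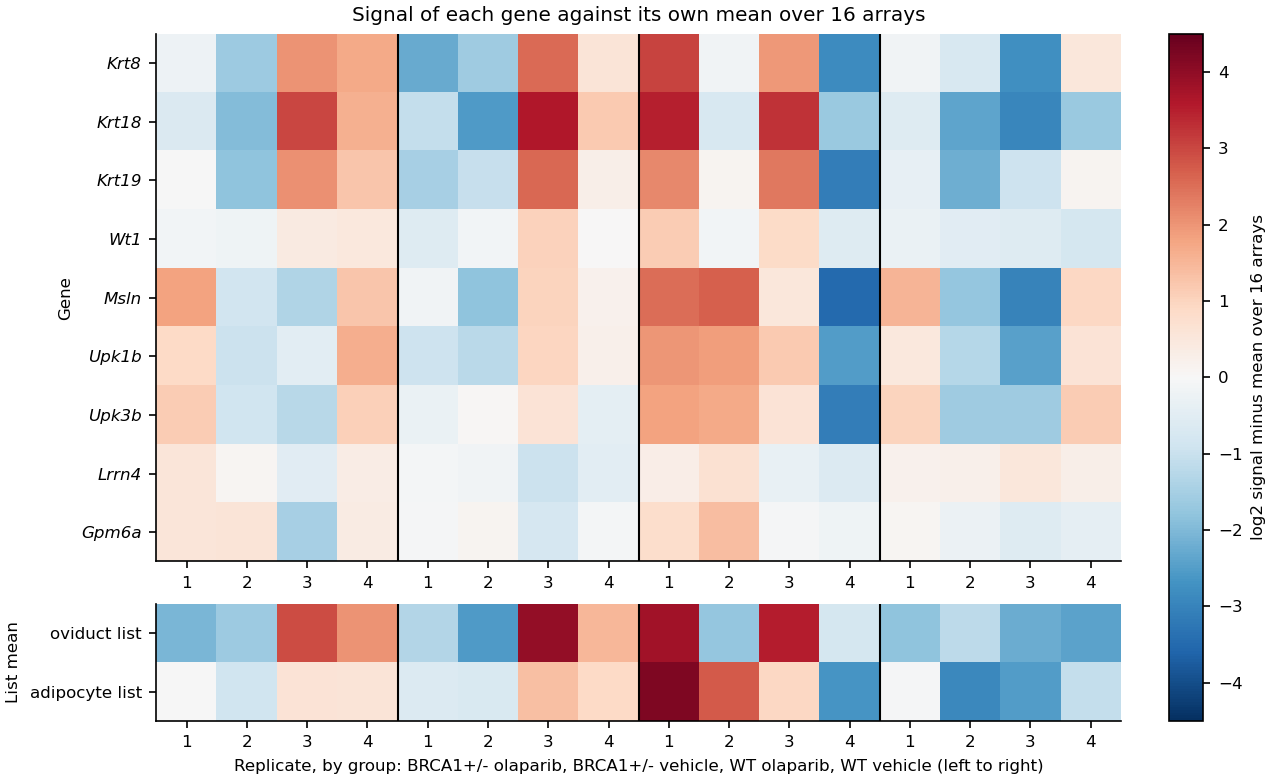
Log2 signal of each gene minus its own mean over 16 arrays (colour, red above and blue below), with the arrays by group and replicate from left to right, and the oviduct and adipocyte list means below. The upper rows (Krt8, Krt18, Krt19 and Wt1) are above their means on the 6 arrays where the oviduct list is red, but Wt1 and Krt19 are nearly white in BRCA1+/- vehicle replicate 4. Msln, Upk1b and Upk3b are bluest in WT olaparib replicate 4 and are blue in WT vehicle replicate 3.

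Likeness was sought among the tested genes with a current symbol, members left out. The mean of the 9 centred profiles was closest to Smtnl2 (r 0.97 over 16 arrays), Adgrb2 (0.95), Klhl32 (0.95), Cfb (0.95) and Slc23a4 (0.95). Upk3b was closest to Bnc1 (0.94) and Rspo1 (0.94), both of which were on the list of other mesothelial genes. Bnc1 encodes basonuclin, a zinc finger protein of mesothelium and germ cells, and Rspo1 a secreted enhancer of Wnt signalling in the ovary. Msln was closest to Wfdc18 (0.96) and Wfdc18l1 (0.94), and Upk1b to Wfdc18 (0.96) and C4a (0.94). Krt19 was closest to Myh14 (0.98) and Mal2 (0.97), Krt18 to Ppp2r2b (0.99) and Krt33a (0.99), Krt8 to Hspb8 (0.97) and Evpl (0.96), and Wt1 to Adora1 (0.98). Lrrn4 was closest to Tbx1 (0.88) and Bst2 (0.87), and Gpm6a to Siae (0.89) and Dner (0.87). Over the 10 arrays without a high oviduct list, the mean of the 9 was closest to Ildr2 (0.97), Wfdc18 (0.97), Col1a1 (0.96), Krt7 (0.96) and Nkain4 (0.96). The last 2 were on the mesothelial list, and Krt7 was on the simple epithelium list as well. The r values given here are the highest among the genes searched, picked for that, and have no test.

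In wild-type ovaries, olaparib against vehicle gave positive log2 differences for 8 of the 9 genes and none passed the test. The median of the 9 was 1.12, against -0.07 over all genes tested, of which 39.2% were above 0. None of the 9 was called at an adjusted p under 0.05 (limma, Benjamini-Hochberg over 20215 genes), with 0% of all genes called. At an unadjusted p under 0.05 it was 1 of 9, against 4.34% of all genes. That gene was Wt1, which averaged 2.18 ± 0.82 in WT olaparib ovaries and 1.33 ± 0.21 in WT vehicle ovaries (SD, n = 4 each). Its log2 difference was 0.85 ± 0.38 (SE), with a limma p of 0.0418, an adjusted p of 0.964 and an exact two-sided permutation p of 0.114. Krt18 had the largest difference of the 9, 2.99 ± 1.46 (95% interval -0.13 to 6.10, limma adjusted p 0.964). Krt8 and Krt19 had differences of 1.30 ± 1.31 and 1.24 ± 1.19, and Upk1b, Msln and Upk3b of 1.29 ± 0.98, 1.12 ± 1.32 and 0.51 ± 1.00. Gpm6a had 0.77 ± 0.44 and Lrrn4, the gene below 0, -0.28 ± 0.29. WT olaparib and WT vehicle values overlapped for all 9, and 1.15% of all genes had groups that did not overlap. With 4 arrays against 4 the exact test cannot go below 0.0286.

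Within slides the wild-type difference was alike for Krt18 (2.87 on slide 1 and 3.10 on slide 2) and Wt1 (0.89 and 0.82). However, WT olaparib replicate 1 on slide 1 and replicate 3 on slide 2 had a high oviduct list, and no WT vehicle array did. WT olaparib replicates 2 and 4 read 2.54 and 1.59 for Krt18, against 0.31 to 2.67 in WT vehicle ovaries. For Wt1 they read 1.73 and 1.27, against 1.08 to 1.58. The difference within slides was 2.70 and -0.47 for Msln, 2.34 and 0.25 for Upk1b, 2.05 and -1.03 for Upk3b, 2.44 and 0.04 for Krt19 and 1.89 and 0.71 for Krt8. Leaving out WT olaparib replicate 4 gave 2.47 for Msln, 2.41 for Krt8, 2.41 for Krt19, 2.34 for Upk1b and 1.62 for Upk3b. Leaving out WT vehicle replicate 3 gave 0.31 for Msln and 0.70 for Upk1b, leaving out WT olaparib replicate 1 gave 0.45 for Krt8 and -0.0076 for Upk3b, and leaving out WT olaparib replicate 3 gave 0.58 for Krt19. Without the 6 arrays of high oviduct list, which leaves WT olaparib replicates 2 and 4, the median of the 9 was 0.16, with 5 of 9 above 0. Krt8, Krt19 and Upk3b then lay below 0, at -0.70, -0.63 and -0.44. All 10 tested genes of the oviduct list and all 6 of the adipocyte list were also above 0 in this comparison, with medians of 3.19 for each list and 0 called. Lep, 1 of the adipocyte genes, passed the filter on dim probes through WT olaparib alone, and without it 5 of 5 were above 0 with a median of 3.20. The list of simple epithelium genes, such as Epcam and Cdh1, had 10 of 10 above 0 and a median of 2.18.

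In BRCA1+/- ovaries all 9 olaparib differences were positive and none passed the test. Their median was 0.28, against 0.02 over all genes, of which 53.2% were above 0. None of the 9 was called, with 0% of all genes called, and at an unadjusted p under 0.05 it was 0 of 9, against 1.17% of all genes. Lrrn4 had the smallest p of the 9. It averaged 2.56 ± 0.46 in BRCA1+/- olaparib ovaries and 2.02 ± 0.39 in BRCA1+/- vehicle ovaries (SD, n = 4 each), a log2 difference of 0.54 ± 0.29 (95% interval -0.09 to 1.17, limma adjusted p 1.00). Same-numbered arrays of these groups varied together, and Lrrn4 was higher with olaparib in 4 of 4 such pairs, by 0.63, 0.25, 0.45 and 0.83 (exact two-sided sign-flip permutation p 0.125, the smallest that 4 pairs allow). With the number as a block in a fit of these 8 arrays its limma adjusted p was 0.751. The dimmer Lrrn4 probe read -0.26, -0.14, 0.03 and 1.11 with olaparib and -1.30, 0.02, -0.42 and -0.18 with vehicle. On that probe the pair of replicate 2 went the other way. Krt8 had 0.65 ± 1.31, Upk1b 0.51 ± 0.98, Msln 0.41 ± 1.32, Krt19 0.28 ± 1.19, Krt18 0.22 ± 1.46, Gpm6a 0.20 ± 0.44, Wt1 0.06 ± 0.38 and Upk3b 0.04 ± 1.00. Each of these 2 groups held 2 arrays with a high oviduct list, replicates 3 and 4, and the oviduct list had a median of -0.08 with 3 of 10 above 0. The 2 groups overlapped for all 9, against 1.1% of all genes with groups that did not overlap. For 6 of the 9 genes the difference had opposite signs on the 2 slides. For Krt18 the 95% interval was -2.89 to 3.33, which holds both 0 and the wild-type value of 2.99. The median of the 9 was 0.52 without the 6 arrays of high oviduct list, with 9 of 9 above 0.

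No gene of the 9 passed the test of whether the olaparib difference depended on genotype. The interaction, the BRCA1+/- difference minus the wild-type difference, was below 0 for 8 of the 9 with a median of -0.71, against 0.08 over all genes. None of the 9 was called, with 0% of all genes called, and 0 of 9 had an unadjusted p under 0.05, against 3.43% of all genes. It was -2.77 ± 2.06 for Krt18 (95% interval -7.17 to 1.64, limma adjusted p 0.969), -0.79 ± 0.54 for Wt1 and 0.82 ± 0.42 for Lrrn4 (95% interval -0.07 to 1.71, limma adjusted p 0.969). Without the 6 arrays of high oviduct list the median was 0.70, and Wt1, Krt8, Krt19, Upk3b, Upk1b and Msln turned above 0.

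In vehicle-treated rats, Lrrn4 was the one gene of the 9 whose BRCA1+/- and WT values did not overlap. It averaged 2.02 ± 0.39 in BRCA1+/- vehicle ovaries and 2.75 ± 0.14 in WT vehicle ovaries (SD, n = 4 each). The log2 difference was -0.73 ± 0.29 (SE; 95% interval -1.36 to -0.10), with a limma p of 0.0268, an adjusted p of 0.862 and an exact two-sided permutation p of 0.0286, the smallest the design allows. Of all genes, 2.2% had every BRCA1+/- value below every WT value, and 3.45% did not overlap in either direction. Slide 1 alone gave -0.34 and slide 2 alone -1.11. On slide 2 both BRCA1+/- vehicle arrays, with Lrrn4 at 1.49 and 1.95, had a high oviduct list, and no WT vehicle array had one. Lrrn4 had r -0.52 with the oviduct list over 16 arrays, -0.19 on the 6 arrays with a high list and -0.47 on the other 10. The part of oviduct tissue in the Lrrn4 difference was not tested. The dimmer Lrrn4 probe gave -0.48 with overlapping groups. It read -1.30, 0.02, -0.42 and -0.18 in BRCA1+/- vehicle ovaries and -0.94, 0.25, -0.61 and 1.32 in WT vehicle ovaries, and lay 1.40 to 4.08 below the brighter probe on the same array.

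The other 8 genes were above 0 in that comparison and none of the 9 was called, with 0% of all genes called. At an unadjusted p under 0.05 it was 1 of 9, against 5.5% of all genes. The median was 0.43, against -0.06 over all genes, of which 42.3% were above 0. Krt18 averaged 3.54 ± 2.70 in BRCA1+/- vehicle ovaries and 1.36 ± 1.01 in WT vehicle ovaries (SD, n = 4 each), a difference of 2.18 ± 1.46 (limma adjusted p 0.862). On slide 1, where neither group held an array of high oviduct list, it was -0.34, and on slide 2, where both BRCA1+/- vehicle arrays were of that kind, it was 4.69. The same split was -1.48 and 2.70 for Krt8, 0.02 and 1.83 for Krt19, and 0.03 and 1.21 for Wt1. For Msln it was -0.88 and 1.62 and for Upk1b -0.67 and 1.52. Without the 6 arrays the median of the 9 was -0.41, with 4 of 9 above 0. The oviduct list had 10 of 10 above 0 with a median of 2.33.

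Among olaparib-treated rats, BRCA1+/- minus WT was below 0 for 8 of the 9, with Lrrn4 the exception at 0.10 ± 0.29. The median was -0.23, against 0.02 over all genes. None of the 9 was called, with 0% of all genes called, and at an unadjusted p under 0.05 it was 0 of 9, against 0.915% of all genes. Differences ran from -0.59 ± 1.46 for Krt18 and -0.49 ± 0.44 for Gpm6a to -0.03 ± 1.19 for Krt19. The groups overlapped for all 9, against 0.584% of all genes with groups that did not. For Krt8 the parts on the slides were -2.38 and 2.29, and for Msln -2.13 and 1.46, so the value near 0 is the mean of opposite differences. Without the 6 arrays the median was 0.30, with 7 of 9 above 0.

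**Figure D4:**
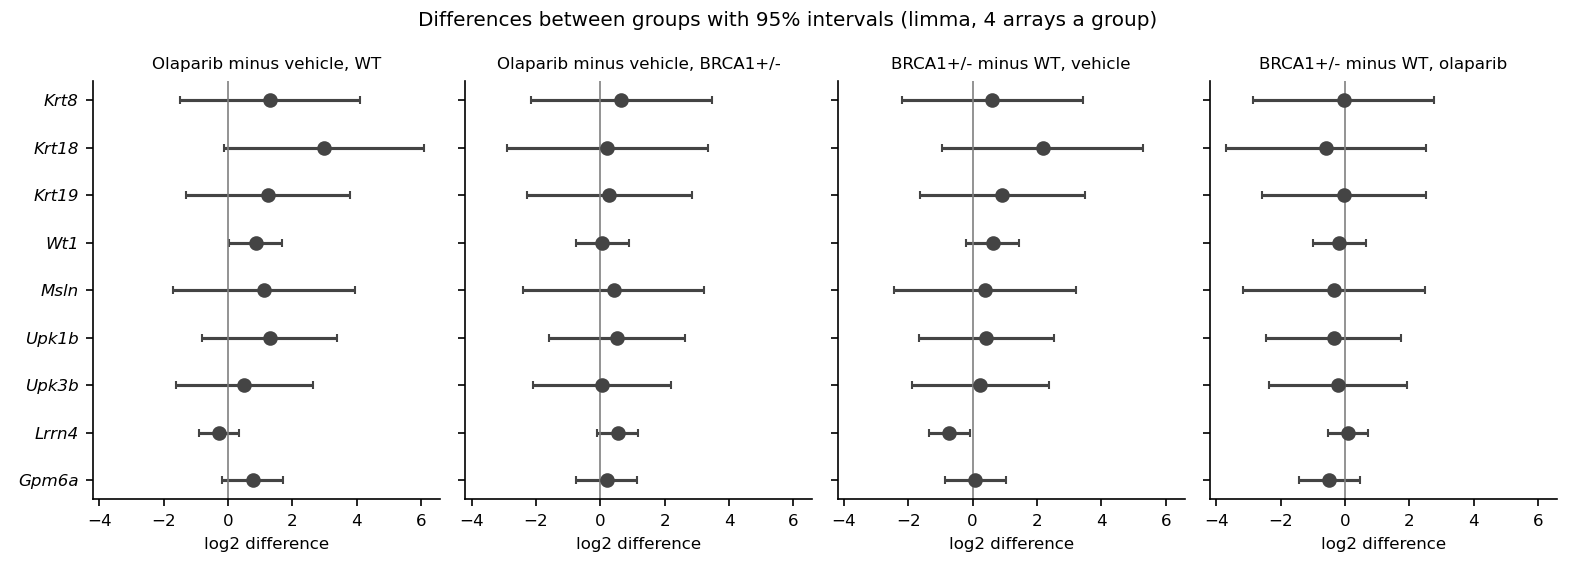
Log2 differences (horizontal axes) of the 9 genes with 95% intervals from limma in 4 comparisons, 4 arrays a group. All intervals cross 0 but those of Wt1 for olaparib minus vehicle in WT (0.04 to 1.67) and Lrrn4 for BRCA1+/- minus WT with vehicle (-1.36 to -0.10), neither with an adjusted p under the threshold of 0.05.

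Other mesothelial genes and relatives of the members gave no call either. The 12 tested mesothelial genes had 10 above 0 for olaparib against vehicle in WT (median 0.33), 9 above 0 for the same in BRCA1+/- (0.23), 6 above 0 for BRCA1+/- against WT with vehicle (0.14) and 1 above 0 for the same with olaparib (-0.25). Lgr5 and Muc1 passed the filter on dim probes through WT olaparib alone; of the other 10 genes 8, 8, 4 and 1 were above 0 in these comparisons, with medians of 0.19, 0.23, -0.03 and -0.20. Among them, the tight junction gene Cldn15 lay between 4.46 and 5.59 on all arrays and Podxl, which encodes podocalyxin, between 3.70 and 4.46. Calb2, which encodes calretinin, ranged from 1.82 to 7.21 and had a log2 difference of -3.56 ± 0.88 for BRCA1+/- minus WT with vehicle (limma p 0.00117, adjusted p 0.862). Dmkn ranged from -3.03 to 4.74 and had a difference of 1.09 ± 1.15 in that comparison. Of the uroplakins that were not members, Upk1a was measured on all arrays between -0.57 and 1.44, Upk3a was well above background on 12 of 16, and Upk2 on 0 of 16. Upk1a had a difference of -0.23 ± 0.39 for olaparib against vehicle in WT, where Upk1b had 1.29 ± 0.98.

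The remaining lists described the tissue beside the members. Granulosa cell genes, 10 of 10 tested, had medians of -0.10 and 0.19 for olaparib against vehicle in WT and BRCA1+/- ovaries, and of -0.40 for BRCA1+/- against WT with vehicle. Over the 10 arrays without a high oviduct list, Krt8 had r -0.61 with the granulosa mean and Upk1b -0.54. With the fibroblast mean r was 0.86 for Upk1b, 0.85 for Upk3b, 0.83 for Krt8 and 0.82 for Msln there, as high as with the adipocyte mean for the uroplakins. With the smooth muscle mean it was 0.78 for Msln, 0.75 for Upk3b and 0.73 for Upk1b there, but -0.57, -0.54 and -0.61 on the 6 arrays with a high oviduct list. For Krt19, Krt18 and Krt8 r with smooth muscle was 0.72, 0.63 and 0.62 on the 10 arrays and 0.56, 0.55 and 0.28 on the 6. Over all 16 arrays it was 0.88 for Krt19, 0.87 for Krt18, 0.83 for Krt8 and 0.67 for Wt1. Msln, Upk3b and Upk1b then had 0.48, 0.41 and 0.60. Fibroblast genes, 7 of 7 tested, had medians of -0.04 and 0.20 for olaparib in WT and BRCA1+/- ovaries. Smooth muscle genes, 6 of 6 tested, had medians of 0.35 and 0.08, and their mean lay between 0.24 and 1.19 on the 6 arrays with a high oviduct list, against -0.87 to 0.37 on the other 10. None of these genes was called.

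The other probe of Krt18 was highest on the same arrays as the brighter one, though the order within them differed. It lay 3.84 to 5.41 lower on each array, with its highest values of 2.92, 2.84, 2.12 and 2.11 on the arrays where the brighter probe was above 6. Its differences had the sign of the brighter probe in all 5 comparisons, with 2.86 against 2.99 for olaparib in WT ovaries.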

How the data were processed

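Total RNA of 16 rat ovaries was hybridised to single-colour Agilent whole-genome arrays. Per the file headers and the submitters' processing notes, the authors extracted the spot intensities, background-subtracted processed signals included, with Agilent Feature Extraction 10.7. The deposited series table holds log2 values made by the authors, which equal log2 processed signal up to a constant per array. From the scanner files, each array's processed signals were put on a log2 scale and its 75th percentile subtracted, without control spots and 12 probes with outlier spots. Probes well above background in at least 3 of 4 arrays of a group were kept (26808 probes, 20215 genes, the brightest probe for each). Of these genes 14967 had a current symbol, and names came from the files and RefSeq tables. Groups were compared with limma 3.58.1 in R 4.3.3 (group means, 5 contrasts, Benjamini-Hochberg over 20215 genes), which was tested on simulated data, and single genes also with an exact permutation test. Alternatives were quantile normalisation, normexp background, the series table, no filter, slide and replicate blocks, other probes and leaving out each array. Members and lists were chosen with earlier results of these data known. The genes named by likeness are those with the highest r, 5 for the mean of the 9 (over 16 and over 10 arrays) and 2 for each member over 16 arrays, of which 1 is not reported here. Replicate numbers were taken as pairs for olaparib against vehicle in BRCA1+/-, where all 4 same-numbered pairs correlated over 0.1. That pairing comes from the data, not the labels, and the numbers also follow the slides. Precision is limited by 4 arrays a group.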

Additional observations from a re-analysis of the deposited data

Results flagged for a closer look

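Gpm6a in replicate 3 of BRCA1+/- olaparib stood at a log2 signal of -2.97, far from the other 3 arrays of its group, which lay between -1.14 and -0.92. Of 36 groups of 4 values tested for such a gap it was the 1 found. At the cutoff used, chance alone flags about 1 in 20 such groups, so 1 of 36 is not more than chance gives.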

How the results depend on the processing

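With 4 arrays a group, Krt18 differences had 95% intervals several log2 units wide, and dim values such as Upk3b in WT olaparib replicate 4 are bounds. The count of genes called was 0 in each of the 5 comparisons under every alternative run, replicate block and slide block included, except that 1 gene was called for olaparib against vehicle in BRCA1+/- when WT olaparib replicate 4 was left out, so the range was 0 to 1. No member was called under any alternative. Same-numbered arrays of different groups had correlations of -0.44 to 0.71, and 12 of 16 arrays were closest to their own number. All 4 pairs were over 0.1 (0.39 to 0.71) in BRCA1+/- olaparib against vehicle, and not in the other comparisons. The replicate block changed no call, and neither did a block within the 8 BRCA1+/- arrays, added after seeing the data, with 0 genes called and 1274 at an unadjusted p under 0.05. Quantile normalisation turned Gpm6a for BRCA1+/- minus WT with vehicle to -0.0096, and normexp turned Upk3b there to -0.14. Without the 6 arrays of high oviduct list, an alternative chosen after seeing the data, olaparib minus vehicle in WT was -0.70 for Krt8, -0.63 for Krt19 and -0.44 for Upk3b. BRCA1+/- minus WT with vehicle was then -1.14 for Krt8, -0.42 for Krt19, -0.41 for Upk1b and -0.42 for Msln, and with olaparib 0.21 for Wt1, 0.55 for Krt8, 0.56 for Krt19, 0.83 for Upk3b, 0.30 for Upk1b and 0.88 for Msln. The interaction was 0.0409 for Wt1, 1.69 for Krt8, 0.97 for Krt19, 0.69 for Upk3b, 0.71 for Upk1b and 1.29 for Msln. The cause was not tested. Leaving out each array in turn reversed 66 of 720 member differences. For olaparib minus vehicle these ranged in WT from -0.0076 to 1.62 for Upk3b, and in BRCA1+/- from -0.16 to 0.38 for Wt1, -0.0498 to 1.57 for Krt8, -0.73 to 1.33 for Krt18, -0.28 to 1.12 for Krt19, -0.34 to 0.46 for Upk3b and -0.12 to 0.93 for Msln. For BRCA1+/- minus WT with vehicle they ranged from -0.31 to 1.31 for Krt8, -0.21 to 0.71 for Upk3b, -0.17 to 0.85 for Upk1b, -0.44 to 1.07 for Msln and -0.0268 to 0.27 for Gpm6a. With olaparib they ranged from -0.47 to 0.10 for Wt1, -1.15 to 0.80 for Krt8, -1.51 to 0.22 for Krt18, -1.20 to 0.70 for Krt19, -1.34 to 0.29 for Upk3b, -1.40 to 0.10 for Upk1b, -1.69 to 0.38 for Msln, -0.11 to 0.32 for Lrrn4 and -0.72 to 0.001 for Gpm6a. The interaction ranged from -1.76 to 0.27 for Krt8, -1.58 to 0.0485 for Upk3b and -2.06 to 0.10 for Msln.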
